A study of Oryza sativa with 18 samples.

Results

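Of the 5908 regions whose DNA methylation differed between the dry rice seed and the seed germinated for 24 h, 732 (12.4%) shared at least 1 bp with a region whose methylation differed between coleoptiles kept in nitrogen and coleoptiles returned to air. Those 732 regions, called shared regions here, are described beside the other 5176 seed regions. They overlapped 732 of the 902 re-aeration regions, which is 81.2% of that list. Both lists are the authors' tables of differentially methylated regions, so a drop after the dry seed and a difference on re-aeration were what put a region on its list, and neither is a finding about the shared regions.

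DNA methylation was measured by MethylC-seq, in which bisulfite treatment lets sequencing tell methylated from unmethylated cytosines, in 18 libraries of wild-type rice (Oryza sativa cv Amaroo) in 6 groups of 3. The first group, dry seed, held embryos taken at 0 h from de-hulled seeds. The 24 h air and 24 h nitrogen groups held embryos after 24 h in MES culture medium bubbled with air or with nitrogen gas. The 4 d air and 4 d nitrogen groups held coleoptiles, the sheath around the first leaf, after 4 d in the same medium under either gas, and the re-aeration group held coleoptiles after 3 d in nitrogen and 1 d in air. All seeds in medium were kept in the dark at 30 °C, and primary leaf tissue was removed from coleoptiles grown in air. Embryos and coleoptiles differ in organ as well as in time, so those differences cannot be told apart. Whether the libraries of 1 group were made from separate cultures is not stated in the labels. The p-values therefore speak only of variation among these libraries, some or all of which may be technical.

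In plants, methyl groups sit on cytosines in the CG, CHG and CHH contexts, where H is any base but G. MET1-type enzymes copy CG methylation after replication, chromomethylases and the RNA-directed pathway with DRM2-type enzymes maintain the other contexts, and DNA glycosylases of the DEMETER and ROS1 family remove methylated cytosines. Methylation is also lost when DNA is replicated without being copied. Rice is known for germinating without oxygen, when the coleoptile elongates while root and leaf growth stay arrested until air returns. Which context was counted here is not settled, because CG appears in the column names of the tables and CNN in the names under which the authors deposited them.

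A methylation level here is the percentage of reads over a region that were methylated, used where a library had 10 or more reads in the region. Of the shared regions, 722 had 10 or more reads in all 18 libraries, against 4876 of the other seed regions. All 732 had at least 2 such libraries in every group. Positions are those of the authors' tables. Their genome build is not named in the labels or tables, so no gene is assigned to a region and no sequence is shown.

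The shared regions were longer and held more differing cytosines than the other seed regions. Their median length was 91 bp (quartiles 68 and 125, range 6 to 393), against 54 bp (29 and 82, range 3 to 345). The authors counted a median of 15 differing sites in a shared region (10 and 22, up to 90) and 6 in another seed region (4 and 11, up to 62). Per 100 bp the medians were 17.2 and 15.3 sites. Shared regions made up 4.17% of the seed regions of up to 50 bp, 13.7% of those of 51 to 100 bp, 27.1% of those over 100 and up to 150 bp and 43.6% of those over 150 bp. A longer region has more bases that can be shared, so length enters the overlap itself.

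The shared regions lay on all 12 chromosomes and were scattered. Their share of the seed regions ran from 10.1% on chromosome 2 to 14.6% on chromosome 12, and 107 of them lay on chromosome 1. A further 2 of 7 seed regions on the sequence that the tables call S were shared. The median distance from a shared region to the nearest other one was 165475 bp. Only 10 lay within 1000 bp of another shared region, and 79 lay within 1000 bp of any other seed region.

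Each overlap usually covered the whole re-aeration region and part of the seed region. A shared region had a median of 45 bp in common with the re-aeration table (quartiles 25 and 70, range 1 to 301), which was 54.1% of its length (33.3 and 76.5). By contrast 511 of the 732 re-aeration partners were covered in full. There were 734 overlapping pairs, since 2 shared regions had 2 partners and 2 partners had 2 shared regions. Of the shared regions 406 were covered to at least 50% and 57 in full, and 694 shared at least 10 bp. The borders coincided at both ends in 15 pairs and at neither end in 562. The overlap threshold divided few close cases, because 11 of the other seed regions lay within 100 bp of a re-aeration region and 96 within 1000 bp. Overlap with the third deposited list, regions that differed between 4 d nitrogen and 4 d air, was rare, with 2 shared regions (0.273%) and 17 of the other seed regions (0.328%).

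The average shared region was highly methylated in the dry seed, lost most of its methylation within 24 h whether or not oxygen was present, stayed low for 4 d, and stood near its dry seed level after 1 d of re-aeration. The mean level over shared regions was 70.4, 67.1 and 68.8% in the 3 dry seed libraries. It was 18.5, 20.5 and 18.9% after 24 h in air, and 21.6, 21.6 and 21.95% after 24 h in nitrogen. The means of every library of these germinated groups lay far below those of the dry seed.

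At 4 d the mean level over shared regions was 16.6, 15.8 and 16.6% in air and 20.1, 20.9 and 19.6% in nitrogen. After re-aeration it was 66.5, 66.6 and 67.8%. As group means this is 68.8 ± 1.65% in the dry seed, 19.3 ± 1.01% and 21.7 ± 0.192% at 24 h in air and nitrogen, 16.3 ± 0.440% and 20.2 ± 0.664% at 4 d in air and nitrogen, and 67.0 ± 0.720% after re-aeration (SD, n = 3 libraries each). The re-aeration libraries overlapped those of the dry seed and no other group.

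**Figure D1:**
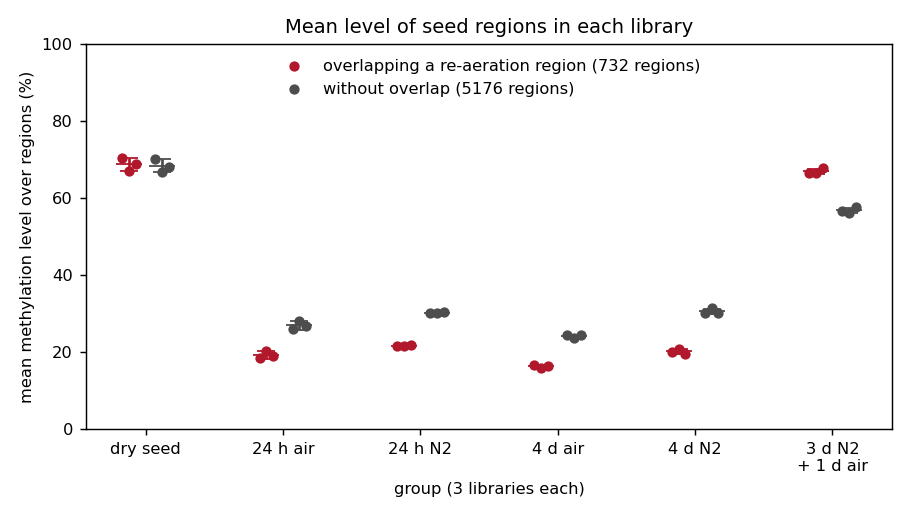
Mean methylation level over regions (%) in each of the 3 libraries of the 6 groups, with the group mean and SD as a bar, for the 732 shared regions (red) and the 5176 other seed regions (grey). Both sets start near 68% in the dry seed, but after re-aeration the shared regions stand at 67.0% and the others at 56.8%, and in the 4 groups between them the shared regions are the lower set.

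The other seed regions followed the same course over a smaller range, as the plot of levels by library shows. At 24 h in air their 3 libraries had mean levels from 25.9 to 28.2%. The group means were 68.4 ± 1.66% in the dry seed, 30.3 ± 0.203% at 24 h in nitrogen, 24.2 ± 0.426% and 30.6 ± 0.694% at 4 d in air and nitrogen, and 56.8 ± 0.738% after re-aeration (SD, n = 3). The sets thus differed by less than the spread between libraries in the dry seed and by more than it in every other group. The side on which they differ after re-aeration and at 4 d nitrogen follows from the choice of the shared regions by that contrast, and no test is given.

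Individual shared regions covered a wide range in the low groups. The median region had 17.1% after 24 h in air, 19.9% after 24 h in nitrogen, 13.7% at 4 d in air and 18.5% at 4 d in nitrogen. Regions under 10% made up 31.1%, 26.5%, 39.9% and 29.6% of the shared regions in these groups, in the same order. A level under 10% in all 4 groups was seen in 167 shared regions (22.8%) and in 11.9% of the others. In the dry seed 680 shared regions (92.9%) and after re-aeration 665 (90.8%) were at 50% or more, against 88.7% and 64.2% of the other seed regions.

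**Figure D2:**
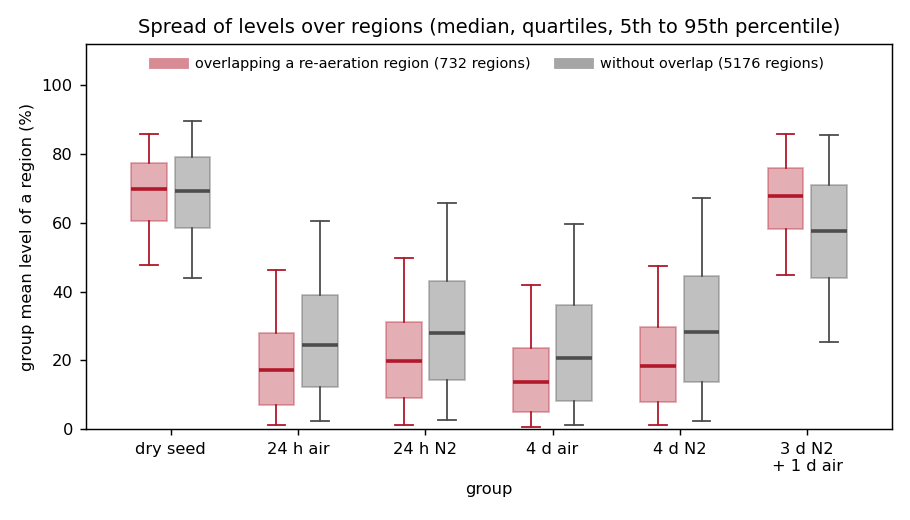
Group mean level of each region (%) in the 6 groups, for shared regions (red) and other seed regions (grey). Boxes span the quartiles with the median as a line, and whiskers reach the 5th and 95th percentiles. The lower quartile after re-aeration is 58.3% in the shared regions and 43.9% in the others, while the dry seed boxes nearly coincide.

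Dry seed and re-aeration were the 2 highest groups in 729 shared regions (99.6%) and in 88.7% of the other seed regions. The dry seed was highest in 456 shared regions and re-aeration in 276. The lowest group was 4 d air in 451, 24 h air in 144, 4 d nitrogen in 80 and 24 h nitrogen in 57 shared regions. Across shared regions, levels in the 24 h and 4 d groups varied together, with Pearson r of 0.949 between 24 h air and 24 h nitrogen, 0.917 between 24 h air and 4 d air, 0.949 between 24 h nitrogen and 4 d nitrogen and 0.926 between 4 d air and 4 d nitrogen. Across the same 732 regions r was 0.840 between dry seed and re-aeration, 0.488 between dry seed and 24 h air and 0.427 between 4 d nitrogen and re-aeration. The other seed regions were much alike, with 0.838, 0.562 and 0.485 for these pairs. For the pairs among the 24 h and 4 d groups they had 0.938, 0.907, 0.938 and 0.911, in the same order. These correlations are across regions, which share libraries and base composition and are not independent replicates.

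After re-aeration, most shared regions lay close to the level each had in the dry seed. The median difference of re-aeration minus dry seed was -2.03 points (quartiles -6.08 and 2.07), against -10.8 points (-17.9 and -4.47) in the other seed regions. The group means were within 10 points in 622 shared regions (85.0%), with re-aeration more than 10 points lower in 78 (10.7%) and more than 10 points higher in 32 (4.37%). In the other seed regions 46.2% were within 10 points and 53.0% more than 10 points lower. The re-aeration mean lay inside the range of the 3 dry seed libraries in 445 shared regions (60.8%), below all 3 in 205 (28.01%) and above all 3 in 82. Among the 5175 other seed regions with all dry seed libraries, it lay inside in 1812, below in 3263 and above in 100. Because the re-aeration libraries took part in choosing the shared regions, the sets are not compared independently here.

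Expressed as a share of the gap between 4 d nitrogen and dry seed, the level after re-aeration stood at a median of 96.0% (quartiles 86.9 and 104) in the 731 shared regions with a gap of at least 10 points. In the 5000 other seed regions with such a gap it stood at 70.3% (43.9 and 88.6). It was under 50% in 6 shared regions (0.821%) and in 1463 others (29.3%), and 100% or more in 276 (37.8%) and 524 (10.5%). The 4 d nitrogen coleoptiles are separate samples from the re-aerated ones, and nitrogen was not sampled for methylation at 3 d in these libraries, so the share is a ratio of group means and not a change followed in 1 sample. It also uses the contrast of re-aeration and nitrogen that chose the shared regions. The side on which the sets differ in it follows from that choice, and no test is given.

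**Figure D3:**
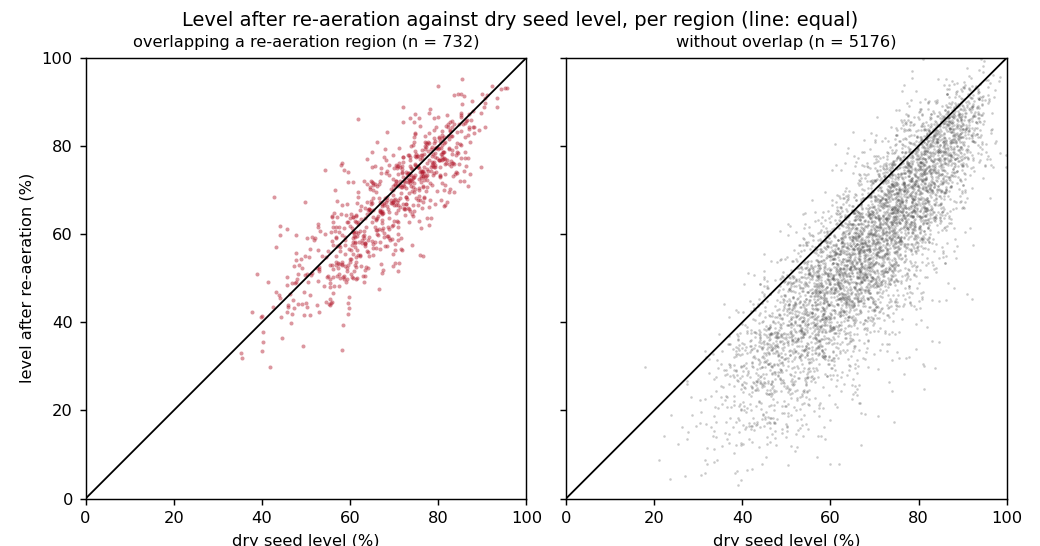
Group mean level after re-aeration (%) against that in the dry seed (%), 1 point per region, for shared regions (left) and other seed regions (right), with the line of equal levels. Shared regions scatter about the line, with a median difference of -2.03 points, while most other regions lie below it, with a median of -10.8 points.

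A region was called between 2 groups when the Benjamini-Hochberg adjusted p of a quasi-binomial logistic model, taken over all seed regions, was under 0.05 and the group means differed by at least 10 points. Between re-aeration and dry seed, 10 shared regions were called higher after re-aeration and 34 lower, of 732 tested. Over all seed regions 0.22% were called higher and 25.5% lower, and among the other seed regions 3 and 1470. All re-aeration libraries lay above all dry seed libraries in 23 shared regions and below in 70, where 0.714% and 31.8% of the seed table did. The re-aeration libraries took part in choosing the shared regions and favour a high level there, so these counts are not an independent comparison of the 2 sets. With the spread estimated from dry seed and re-aeration alone, 0 were called in either direction by the same model. An unadjusted p under 0.05 was found there for 34 shared regions. Over all seed regions that setting also called 0 in either direction, with 1298 at an unadjusted p under 0.05. For limma the calls were 12 higher and 28 lower, against 15 and 1551 over all seed regions. Without dry seed replicate 2 or re-aeration replicate 3, 16 shared regions were called higher, against 25 and 26 over all seed regions.

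The 10 called higher differed by 10.3 to 25.8 points, had a median length of 62 bp, and lay on 6 chromosomes. Their median level was 72.0% in the dry seed, 12.7% at 4 d nitrogen and 85.9% after re-aeration. The 34 called lower differed by 10.2 to 24.4 points, had a median length of 113 bp, and lay on 11 chromosomes. Their median level was 77.0% in the dry seed, 22.8% at 4 d nitrogen and 61.7% after re-aeration, so they too were far above 4 d nitrogen.

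Among shared regions with 10 or more reads in all 18 libraries, that with the largest excess of re-aeration over dry seed was 16 bp long, on chromosome 9 from 21826957 to 21826972, with 5 differing sites. Its level was 45.1, 28.3 and 54.7% in the dry seed and 75.7, 58.9 and 71.0% after re-aeration, and at most 8.18% in every library of the other groups. Every re-aeration library was above every dry seed library. The difference was 25.8 points (adjusted p = 0.0194, quasi-binomial model), lost in 2 of 11 alternatives (read minimums, replicate block, own spread, limma and each of the 6 libraries left out), whose adjusted p ran from 0.00340 to 0.269. It rests on 74 to 104 reads per dry seed library and 45 to 83 per re-aeration library.

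On chromosome 6 from 356878 to 356930, the region with the next largest excess under the same limit had 73.5, 37.2 and 51.9% in the dry seed and 61.6, 75.6 and 86.7% after re-aeration. The libraries of these groups overlapped, and the difference of 20.4 points was not called (adjusted p = 0.179, quasi-binomial model). On chromosome 8 from 25093328 to 25093337, a region of 10 bp covered in full had 56.3, 60.1 and 58.1% in the dry seed and 74.8, 85.8 and 67.6% after re-aeration, with no overlap. The difference of 17.9 points was called (adjusted p = 0.0398, quasi-binomial model) but not in 7 of 11 alternatives.

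At the other end, a shared region of 85 bp on chromosome 3 from 22482222 to 22482306 had 46.3, 65.3 and 62.9% in the dry seed and 44.02, 18.1 and 39.4% after re-aeration. All re-aeration libraries were below the dry seed, by 24.4 points on average (adjusted p = 0.0339, quasi-binomial model), a call lost in 5 of 11 alternatives. Its re-aeration level of 33.8% was close to the 29.1% of 4 d nitrogen, whereas the partner in the re-aeration table, which covers 27 bp of it, had 87.9, 39.2 and 66.7% after re-aeration. The 3 re-aeration libraries thus differed from each other by more over the partner than the groups differed over the region.

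On chromosome 3 from 18531215 to 18531272, a shared region of 58 bp with 27 differing sites had 82.7, 68.5 and 78.7% in the dry seed and 60.2, 64.4 and 40.2% after re-aeration. In the other 4 groups no library exceeded 1.47%. The re-aeration libraries were all below the dry seed, by 21.6 points (adjusted p = 0.0165, quasi-binomial model), and the call was lost in 2 of 11 alternatives.

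A shared region of 102 bp on chromosome 2 from 26217019 to 26217120 showed how far 1 library could stand apart. Its level after re-aeration was 68.4, 73.4 and 24.1%, against 74.3, 80.2 and 73.0% in the dry seed and 21.9, 17.7 and 23.5% at 4 d nitrogen. The first 2 re-aeration libraries were near the dry seed and the third was near nitrogen. The difference from the dry seed of -20.5 points was not called (adjusted p = 0.12, quasi-binomial model).

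In points, such disagreement between libraries was most frequent after re-aeration. The 3 re-aeration libraries spanned 20 points or more in 215 shared regions (29.4%) and 30 points or more in 72 (9.84%). In the dry seed the corresponding counts were 122 and 17, and in the 4 low groups they were 37 to 48 and 6 to 11. The median SD between libraries of a region was 7.51 points after re-aeration, 5.90 in the dry seed and 2.76 to 3.74 in the low groups. A level near 0 leaves less room for spread, and the part of this in the difference was not tested. Reads differed too, with a median of 315.5 per library after re-aeration and 433 in the dry seed. The part of counting error was not tested either.

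The lowest of the 3 re-aeration libraries was replicate 1 in 251 shared regions, replicate 2 in 259 and replicate 3 in 222, so no library was consistently the low one. In the dry seed replicate 2 was lowest in 330 and replicate 1 in 157. The other seed regions also spread most after re-aeration, with a median SD of 7.92 points.

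The difference between 4 d nitrogen and re-aeration chose the list that defines the shared regions and is given only as a description. The median shared region was 46.6 points higher after re-aeration (quartiles 36.8 and 55.9), against 24.3 points in the other seed regions. Re-aeration was higher in 731 shared regions and lower in 1. By the call rule 722 of 732 were higher and none lower, where 69.9% of the seed table was called higher and 0.341% lower, and nothing is read from this count. At an unadjusted p under 0.05, 723 were higher and 0 lower, against 4285 and 35 over all seed regions. For limma the calls were 721 higher and 0 lower, against 4315 and 28 over all seed regions.

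Among shared regions with 10 or more reads in all 18 libraries, the one with the largest difference was 198 bp long, on chromosome 11 from 25618902 to 25619099, with 38 differing sites. Its level was 89.3, 82.7 and 91.9% in the dry seed and 91.1, 83.3 and 89.3% after re-aeration. In the 12 libraries of the other groups it was at most 1.11%. The region was thus nearly unmethylated in every germinated library but the re-aerated ones, which overlapped the dry seed, and it had 982 to 1220 reads per re-aeration library and 219 to 290 per 4 d nitrogen library.

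A region of 68 bp on chromosome 7 from 24599624 to 24599691 behaved alike. Its level was 90.5, 82.6 and 89.4% in the dry seed and 90.7, 79.7 and 87.5% after re-aeration. It was 0 in all 6 libraries kept in air for 24 h or 4 d, where a library had 39 to 114 reads, and at most 2.17% in nitrogen. A count of 0 (limit of 3 counts) allows a level of up to 7.69% at 39 reads and 2.63% at 114 reads, counting error only. These limits take every read as an independent count, and are too low if reads were counted per cytosine.

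The region of 65 bp on chromosome 5 from 6906909 to 6906973 had 83.1, 86.6 and 87.9% in the dry seed and 89.6, 92.6 and 91.6% after re-aeration. It kept some methylation in nitrogen at 24 h, with 11.7, 13.3 and 2.85%, against 1.78, 0 and 0.951% in air. The libraries of the 2 gases did not overlap at 24 h, and no call was made there. Re-aeration exceeded every dry seed library in this region.

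Large differences were also seen in regions of 60 bp (chromosome 3, 23183168 to 23183227) and 55 bp (chromosome 4, 25505294 to 25505348). The first had 98.2, 91.1 and 83.6% after re-aeration and 5.54, 11.7 and 6.24% at 4 d nitrogen. The second had 67.9, 82.6 and 95.7% after re-aeration and 0.933, 0 and 0% at 4 d nitrogen. Their re-aeration libraries differed by 14.6 and 27.8 points, and in both every one lay above all nitrogen libraries.

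**Figure D4:**
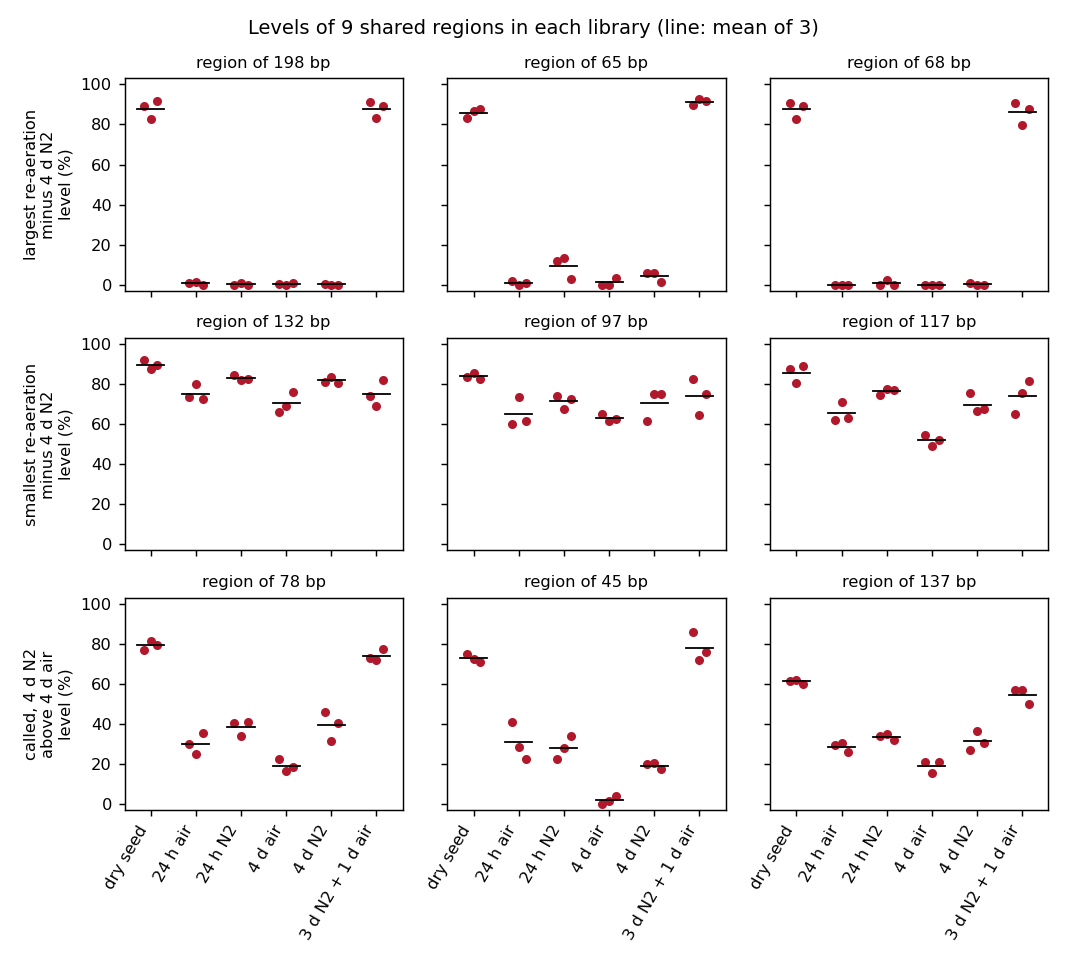
Level (%) in each library (points) with the mean of 3 (line) for 9 shared regions, named by length. The top row holds the 3 with the largest difference of re-aeration minus 4 d nitrogen, the middle row the 3 with the smallest, and the bottom row the 3 called higher in 4 d nitrogen than in 4 d air. In the top row the 24 h and 4 d libraries are at 13.3% or less, while in the middle row no library falls below 49.3%.

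The 3 shared regions with the smallest difference stayed methylated throughout. On chromosome 8 from 23025521 to 23025652, a region of 132 bp with 3 differing sites had 81.4, 83.5 and 80.8% at 4 d nitrogen and 74.1, 69.3 and 82.2% after re-aeration. It was the only shared region lower after re-aeration, and its groups overlapped. Its partner gave the same order, with 84.4, 86.2 and 87.0% at 4 d nitrogen and 75.2, 70.5 and 83.3% after re-aeration. At 24 h in air it had 75.4 ± 4.08% and in the dry seed 89.7 ± 2.12% (SD, n = 3).

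On chromosome 1 the corresponding regions overlapped their partners by only a few bases. The region from 28525803 to 28525899 shared 11 of its 97 bp and had 61.5, 75.4 and 75.3% at 4 d nitrogen and 82.6, 64.7 and 74.9% after re-aeration. The libraries overlapped, and the sign of the 3.37 points between them depended on single libraries, with -1.25 points without nitrogen replicate 1 and -0.884 without re-aeration replicate 1. Over the partner's borders the same libraries gave 12.4, 21.9 and 19.96% at 4 d nitrogen and 86.4, 50.4 and 49.4% after re-aeration.

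The region from 19071773 to 19071889 shared 15 of its 117 bp. It had 75.5, 66.5 and 67.6% at 4 d nitrogen and 65.03, 75.9 and 81.7% after re-aeration, which overlapped. Its partner had 11.1, 12.5 and 5.40% at 4 d nitrogen and 57.5, 70.3 and 76.2% after re-aeration. In these 2 places the partner lay inside the seed region and had a lower level at 4 d nitrogen than the region as a whole.

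The border mattered less in most shared regions. Within a library, the level over the borders of the seed table and that over the partner's borders differed by a median of 2.98 to 3.81 points in absolute value across the 9 coleoptile libraries, with a 95th percentile of 18.5 to 30.8 points. Shared regions covered in full had 16.6 ± 0.448% at 4 d nitrogen and 68.8 ± 1.17% after re-aeration. Those covered to less than 50% had 23.4 ± 0.657% and 66.4 ± 0.856% (SD, n = 3). The regions covered in full had the wider difference, the one by which the partners were chosen.

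The smallest overlaps gave smaller differences. A region of 50 bp on chromosome 2 from 19481834 to 19481883, which shared 1 bp, had 55.6, 51.03 and 55.2% at 4 d nitrogen and 64.0, 78.3 and 88.3% after re-aeration. It stayed between 39.6 and 63.1% in all other germinated libraries, and its dry seed level was 62.0, 72.5 and 69.95%. The re-aeration libraries lay above all 4 d nitrogen libraries but overlapped those of the dry seed. A region of 6 bp on chromosome 10 from 2788987 to 2788992, which also shared 1 bp, had 45.6, 34.9 and 61.3% at 4 d nitrogen and 73.8, 79.5 and 84.2% after re-aeration. Replicate 2 of 4 d air had 8 reads there and was left out.

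Just outside the threshold, a seed region of 28 bp on chromosome 6 from 12539572 to 12539599 lay 2 bp from a re-aeration region. It had 52.4, 57.0 and 61.1% in the dry seed, 0, 3.44 and 11.1% at 4 d nitrogen and 40.9, 55.4 and 31.8% after re-aeration. A seed region of 94 bp on chromosome 4 from 14070530 to 14070623 lay 3 bp away and had 64.1, 65.5 and 59.2% in the dry seed, 36.0, 33.1 and 37.9% at 4 d nitrogen and 61.5, 56.4 and 63.2% after re-aeration. In both, the re-aeration libraries lay above all nitrogen libraries. The first stood at a mean of 56.9% in the dry seed and 42.7% after re-aeration, the second at 62.9 and 60.4%. Over the 11 other seed regions within 100 bp, the median difference of re-aeration minus dry seed was -10.9 points.

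The longest shared regions were also lower at 4 d nitrogen than in the dry seed and after re-aeration. One of 372 bp with 90 differing sites, on chromosome 3 from 36413398 to 36413769, had 82.8, 81.3 and 76.6% in the dry seed, 29.7, 25.4 and 27.6% at 4 d nitrogen and 83.5, 79.6 and 82.4% after re-aeration. Re-aeration and dry seed overlapped here on 2939 to 3859 reads per library. The longest of all, of 393 bp on chromosome 5 from 17879262 to 17879654, had 60.03, 48.2 and 64.98% in the dry seed, 28.5, 31.0 and 30.1% at 4 d nitrogen and 48.4, 50.3 and 51.8% after re-aeration.

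The third, of 364 bp on chromosome 11 from 27508403 to 27508766, shared 301 bp with its partner, the largest overlap of any shared region. It had 62.2, 62.7 and 62.6% in the dry seed, 15.4, 13.9 and 14.1% at 4 d nitrogen and 71.8, 56.2 and 62.5% after re-aeration. The dry seed libraries agreed within 0.466 points while the re-aeration libraries spanned 15.6 points around nearly the same mean.

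The levels compared between 4 d air and re-aeration did not include those of 4 d nitrogen. The spread behind each p came from all 18 libraries, 4 d nitrogen among them. By the names of the lists 4 d air was compared in neither, though no region caller is named. The median shared region was 50.5 points higher after re-aeration (quartiles 41.9 and 59.4), against 31.0 points in the other seed regions. Of 732 shared regions 729 were called higher and 0 lower (limma 729 and 0), where 84.3% of the seed table was called higher and 0.017% lower. At an unadjusted p under 0.05 the counts were 730 and 0, against 5056 and 1 over all seed regions, where limma called 5046 and 1. All re-aeration libraries lay above all air libraries in 714 of 727 shared regions and below in 0, where 84.5% and 0.0698% of the seed table did. Re-aerated coleoptiles therefore stood above coleoptiles of the same age grown in air throughout, with the re-aeration libraries themselves favoured by the choice of regions.

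Relative to the dry seed, the coleoptiles of 4 d were low in both gases. By the call rule 730 of 732 shared regions were lower in 4 d air (97.8% of the seed table) and 730 in 4 d nitrogen (96.1%), with median differences of -52.7 and -48.0 points. The dry seed was the high side of the seed list, and 4 d nitrogen was mostly the low side of the re-aeration list. Both choices favour such calls, so these counts are no independent evidence of a loss. The 24 h groups were compared with the dry seed to make the list, so their counts of 731 lower in air (99.1% of the table) and 728 lower in nitrogen (96.9%) are a description, with medians of -49.1 and -46.1 points.

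Nitrogen and air differed little over the shared regions at 24 h. The median shared region was 1.65 points higher in nitrogen than in air (quartiles -0.350 and 5.04), and 2.79 points higher among the other seed regions. Nitrogen was higher in 517 shared regions and lower in 214. None was called in either direction (0.017% higher and 0% lower over the seed regions). An unadjusted p under 0.05 was found for 31 shared regions, of which 28 were higher in nitrogen. Over all seed regions 377 had such a p, and 359 of them were higher in nitrogen. With limma 0 shared regions were called, against 5 higher and 0 lower over all seed regions. All 3 nitrogen libraries lay above all 3 air libraries in 95 of 728 shared regions and below in 15, where 13.9% and 1.79% of the seed table did.

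At 4 d the shift was in the same direction. The median shared region was 2.73 points higher in nitrogen (quartiles 0.205 and 6.99), against 5.43 points in the other seed regions. Of 732 shared regions 3 were called higher in nitrogen and 0 lower, where 1.92% and 0.0171% of the seed table were called. At an unadjusted p under 0.05 there were 74, all higher in nitrogen, against 973 higher and 16 lower over all seed regions. For limma the calls were 10 higher and 0 lower, against 235 and 2 over all seed regions. All 3 nitrogen libraries lay above all 3 air libraries in 155 of 725 shared regions and below in 15, where 29.6% and 1.34% of the seed table did. Whether the sets differ in this was not tested, and the level that sets them apart in nitrogen was part of the choice.

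The largest of the 3 calls was a region of 78 bp on chromosome 2 from 33935038 to 33935115. It had 46.2, 31.6 and 40.8% in 4 d nitrogen and 22.8, 16.5 and 18.5% in 4 d air, with no overlap and a difference of 20.3 points (adjusted p = 0.0208, quasi-binomial model). At 24 h it had 40.6, 34.2 and 40.98% in nitrogen and 30.4, 25.2 and 35.6% in air, which overlapped. It reached 73.0, 72.0 and 77.5% after re-aeration and 77.3, 81.4 and 79.5% in the dry seed.

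The second was a region of 45 bp on chromosome 3 from 31261714 to 31261758, with 20.3, 20.4 and 17.4% in 4 d nitrogen and 0, 1.92 and 3.99% in 4 d air. The difference was 17.4 points (adjusted p = 0.0242, quasi-binomial model). The third, of 137 bp on chromosome 7 from 4124173 to 4124309, had 27.3, 36.8 and 30.6% in nitrogen and 21.2, 15.5 and 21.04% in air, a difference of 12.3 points (adjusted p = 0.0315, quasi-binomial model). The gases did not overlap in either region. The 3 calls were lost in 5, 8 and 7 of 11 alternatives, in the order given, and all 3 were lost when the spread was taken from the compared groups alone. No call was made among shared regions without 4 d air replicate 2, 4 d air replicate 3 or 4 d nitrogen replicate 3, and 1 without 4 d nitrogen replicate 2. Over all seed regions 33, 25, 52 and 42 were called higher without these libraries, in the same order.

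Both shared regions that also overlapped the list of differences between 4 d nitrogen and air were looked at after that count was seen. The region on chromosome 1 from 19071773 to 19071889, described above, had 75.5, 66.5 and 67.6% in nitrogen and 54.5, 49.3 and 52.1% in air. The groups did not overlap, and the difference of 17.9 points was not called (adjusted p = 0.106, quasi-binomial model). A region of 175 bp on chromosome 7 from 24779402 to 24779576 had 33.9, 51.8 and 57.4% in nitrogen and 34.4, 26.5 and 24.4% in air, which overlapped (adjusted p = 0.0731, quasi-binomial model). Over the borders of that list, which this contrast chose, the first had 89.9, 76.2 and 77.2% in nitrogen and 55.7, 52.3 and 53.2% in air.

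Between 24 h and 4 d the shared regions changed little. In air the median shared region changed by -2.14 points from 24 h to 4 d, and 0 were called higher and 1 lower (0% higher and 0.0341% lower over the seed regions). At an unadjusted p under 0.05 there were 3 higher and 63 lower, against 65 and 578 over all seed regions. For limma the calls were 0 higher and 1 lower, against 0 and 4 over all seed regions. All 4 d libraries lay above all 24 h libraries in 28 of 725 shared regions and below in 144, where 4.07% and 18.5% of the seed table did. The 24 h air libraries were the low side of the seed list, which favours low levels at 24 h in all seed regions. The 1 call, named after it was seen, fell on the 45 bp region of chromosome 3 named above (31261714 to 31261758), with 41.3, 28.6 and 22.8% at 24 h in air and 0, 1.92 and 3.99% at 4 d (adjusted p = 0.0498, quasi-binomial model), a call lost in 8 of 11 alternatives and left only without 24 h air replicate 3 among the libraries left out in turn.

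In nitrogen the median difference of 4 d minus 24 h was -0.996 points, and none of the shared regions was called (0.017% higher and 0% lower over the seed regions). At an unadjusted p under 0.05 there were 2 higher and 21 lower. Over all seed regions 220 had such a p, and 117 of them were lower at 4 d. With limma 0 shared regions were called, against 1 higher and 1 lower over all seed regions. All 4 d libraries lay above all 24 h libraries in 26 of 727 shared regions and below in 81, where 6.15% and 6.83% of the seed table did. The 4 d nitrogen libraries were mostly the low side of the contrast that chose the shared regions, which favours low levels there. The 24 h nitrogen libraries were the low side of the seed list. The split is therefore no independent result about the shared regions. In air as in nitrogen, embryos at 24 h are set against coleoptiles at 4 d.

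The shared regions that stood highest at 4 d in air relative to 24 h, with 10 or more reads in all libraries, had no called difference. On chromosome 11 from 7486514 to 7486550 the level was 34.6, 23.3 and 27.6% at 24 h and 53.1, 59.3 and 48.6% at 4 d in air, without overlap, a difference of 25.2 points (adjusted p = 0.512, quasi-binomial model). On chromosome 3 from 32608245 to 32608261 it was 29.1, 17.9 and 23.1% at 24 h and 26.3, 38.2 and 56.6% at 4 d, which overlapped (adjusted p = 0.67, quasi-binomial model). On chromosome 2 from 1518432 to 1518503 it was 46.9, 60.7 and 36.8% at 24 h and 41.5, 52.0 and 88.1% at 4 d, a difference of 12.4 points (adjusted p = 0.946, quasi-binomial model) that was -1.39 points without 4 d air replicate 3.

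The number of reads over the shared regions moved with the level. The median shared region had 408.5 to 483 reads per dry seed library and 292.5 to 335 per re-aeration library, but 173 to 227.5 per library in the other 4 groups. Re-aeration had a median of 1.48 times the reads of 4 d nitrogen over shared regions, more in 676 of 732, against 1.27 times in the other seed regions and 0.836 times in the regions of the list made from nitrogen and air. The dry seed had 2.08 times the reads of 24 h air, more in all 732 shared regions, and 1.72 times in the other seed regions.

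Split by kind of read, the gain after re-aeration was in methylated reads. Shared regions had 2.32 ± 0.136 methylated reads per bp after re-aeration and 0.401 ± 0.0283 at 4 d nitrogen, and 1.09 ± 0.0572 and 1.80 ± 0.119 unmethylated reads per bp (SD of 3 libraries, median region). In the dry seed they had 3.27 ± 0.358 and 1.42 ± 0.0573. Unmethylated reads per bp were thus fewer after re-aeration than in nitrogen, as well as methylated reads being more. The part that read recovery plays in the levels was not tested.

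**Figure D5:**
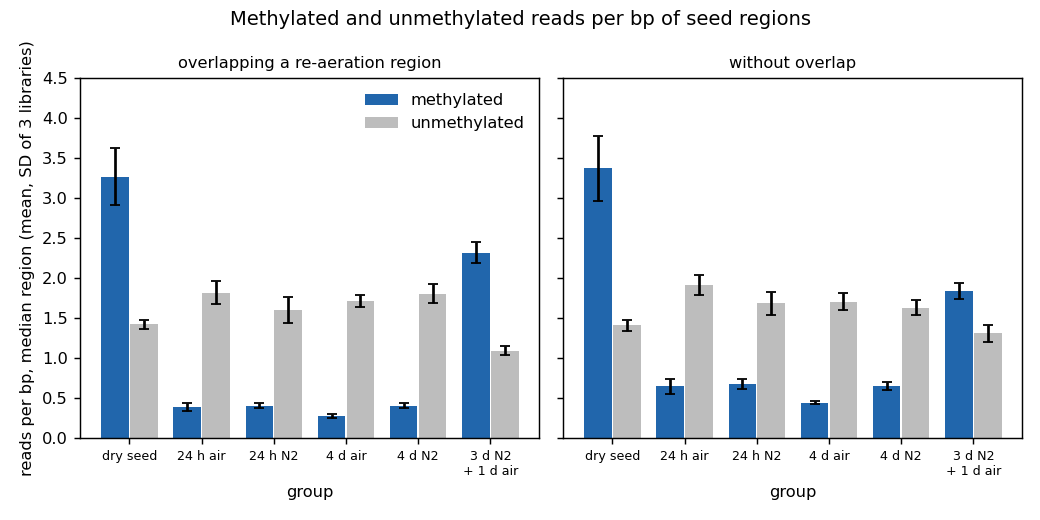
Methylated (blue) and unmethylated (grey) reads per bp of the median region in the 6 groups, as the mean and SD of 3 libraries, for shared regions (left) and other seed regions (right). In the shared regions the dry seed and re-aeration have 3.27 and 2.32 methylated reads per bp and the other groups at most 0.401.

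The contrast between shared and other seed regions after re-aeration was present at every length. Among regions of up to 50 bp the mean level after re-aeration was 68.9 ± 1.43% in the 106 shared regions and 53.9 ± 0.907% in the 2437 others. Among those of 51 to 100 bp it was 65.9 ± 1.11% and 58.3 ± 0.695%, among those over 100 and up to 150 bp 68.1 ± 0.379% and 62.9 ± 0.519%, and among those over 150 bp 65.9 ± 0.539% and 61.7 ± 0.611% (SD, n = 3). The gap between the sets narrowed from the shortest to the longest regions. It also narrowed as the number of differing sites rose. At 3 to 5 sites the means were 67.5 ± 1.75% in shared regions and 53.7 ± 0.865% in others. At 21 or more sites they were 67.8 ± 0.806% and 64.7 ± 1.36% (SD, n = 3).

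The contrast between the sets was also present at like dry seed levels. Where the dry seed stood at 50 to 70%, re-aeration stood at 60.1 ± 0.200% in 315 shared regions and 48.3 ± 0.565% in 2082 others. Where it stood at 80 to 90%, re-aeration stood at 79.8 ± 1.92% in 123 shared regions and 75.1 ± 1.19% in 980 others. At like levels in nitrogen, regions under 10% at 4 d nitrogen reached 61.9 ± 1.38% in 217 shared regions and 48.4 ± 0.783% in 950 others, and regions at 40% or more reached 78.4 ± 0.271% in 81 and 68.3 ± 0.818% in 1627 (SD, n = 3). Each of these gaps exceeds the spread between libraries. The same re-aeration libraries took part in choosing the shared regions, so the gaps describe the list and are no test of it.

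Seen from the re-aeration table, the regions that overlapped a seed region were low at 4 d in both gases and high after re-aeration. Over its borders the 732 overlapped regions had 13.7 ± 0.312% in 4 d air, 16.1 ± 0.634% in 4 d nitrogen and 69.5 ± 0.624% after re-aeration (SD, n = 3). The 170 without overlap had 25.7 ± 0.752%, 37.0 ± 0.537% and 56.7 ± 1.64%, and were shorter, with a median of 30 bp against 52 bp.

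Calls of a lower level after re-aeration were found only among the regions without overlap, most of whose calls were nevertheless higher. Of the overlapped regions 720 of 731 tested were called higher after re-aeration and 0 lower, and of those without overlap 98 were called higher and 61 lower, where 90.8% and 6.77% of the re-aeration table were called. All 61 regions called lower after re-aeration therefore fell outside the seed regions. Of the overlapped regions 1 was lower at an unadjusted p under 0.05 (quasi-binomial model). Its difference of -9.56 points was short of the 10 points that a call needs. The contrast itself chose this table, so only the split of its directions by overlap is described.

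Between 4 d nitrogen and 4 d air, over the re-aeration borders, 0 of 729 overlapped regions and 2 of 165 without overlap were called (0.224% of that table), with 34 and 64 higher at an unadjusted p under 0.05 and median differences of 1.69 and 7.15 points. Against 4 d air, re-aeration was called higher in 715 of 729 overlapped regions and in 92 of 165 without overlap (90.3% of that table), and lower in 0 and 2.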

How the data were processed

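Libraries were assigned to groups by their titles and columns by group and replicate number, with 0 columns of per-library values unused. DNA was extracted with a column kit and lambda DNA was added before MethylC-seq library preparation, per the labels' protocols. Neither labels nor headers name an aligner, region caller, filter or genome build. Per the file headers, the authors' 3 tables of differentially methylated regions give each region a total read count, a methylated read value and a percent per library. The deposited methylated values were treated as estimated counts, each a whole number times a library factor of 0.9977 to 0.9983 (100% whole within 0.01). The deposited percent divides the methylated value by the total, and was treated as missing where the total was under 10. The authors' text lists of high and low libraries were not used.

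Regions were called with a quasi-binomial logistic model per region (Python 3.11.15, scipy 1.17.1), with 1 term per group, a dispersion of at least 1 shared by all 18 libraries, and Benjamini-Hochberg adjustment over a table. A comparison needed 2 libraries per group. The model was tested on simulated data. limma 3.58.1 (R 4.3.3) on levels was an alternative, with read minimums of 5 and 20, a replicate block, other thresholds, other overlap rules and leaving out each library. Reads over neighbouring cytosines are not independent, and total reads over regions are not library depth. Mean levels were taken over regions in each library, then over 3 libraries.

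Regions named in the text were the 5 with the largest and 3 with the smallest difference of re-aeration minus nitrogen, the 3 highest and 3 lowest against the dry seed, those called between the gases, the 3 with the largest difference of 4 d minus 24 h air, the 3 longest, the 2 with the smallest overlap and the 2 nearest outside, all with 10 or more reads in all libraries except under the overlap rule. The shared regions and these rules were chosen with earlier results of these data known.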

Additional observations from a re-analysis of the deposited data

How the results depend on the processing

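Of the counts of calls among shared regions, 278 recomputed values stayed within 1.5 times and 30 did not. For 4 d nitrogen above air (3 calls), the spread of the compared groups alone gave 0, limma 10, a minimum of 20 points 1, regions covered to 50% or more 1, and leaving out a library 0 to 3. For re-aeration above dry seed (10), the same settings gave 0 with own spread and 1 at 20 points, and leaving out a library 9 to 16 (16 without dry seed replicate 2 or re-aeration replicate 3). For re-aeration below dry seed (34), they gave 0 with own spread, 2 at 20 points, 12 in regions covered to 50% or more, and 24 to 41 on leaving out a library. The 1 call of 4 d below 24 h air became 0 at 5 reads, under the replicate block and with own spread, and was 0 to 1 on leaving out a library. Over all seed regions, own spread also gave 0 calls in each of these contrasts. Leaving out a library there gave 25 to 69 for 4 d nitrogen above air and 0 to 2 for 4 d below 24 h air. It gave 17 to 28 for re-aeration above dry seed and 1084 to 1607 for re-aeration below it. Re-aeration below nitrogen (0) became 1 without re-aeration replicate 3, a range of 0 to 1, where 21 were called over all seed regions. The cause was not tested, except that requiring 50% cover leaves 406 regions. It gave 404 calls for re-aeration above 4 d air and above 4 d nitrogen, for 4 d air, 4 d nitrogen and 24 h nitrogen below dry seed, and 405 for 24 h air. Pooling reads gave mean levels of 71.0, 21.3, 23.8, 17.4, 21.9 and 68.9% in dry seed, 24 h air, 24 h nitrogen, 4 d air, 4 d nitrogen and re-aeration. The median over regions gave 17.1, 19.9, 13.8, 18.1 and 68.2% in the last 5, and regions covered to 50% or more 17.2, 19.2, 14.6 and 17.6% in 24 h air, 24 h nitrogen, 4 d air and 4 d nitrogen. Among single regions, 282 recomputed values kept their direction and side of the threshold, 45 lost a call and 6 gained one, and 3 differences changed sign on leaving out a library: re-aeration minus nitrogen on chromosome 1 from 28525803 to 28525899 ranged from -1.25 points (without nitrogen replicate 1) to 8.06, with -0.884 without re-aeration replicate 1, and 4 d minus 24 h air on chromosome 2 from 1518432 to 1518503 was as low as -1.39 (without 4 d air replicate 3). Deviations of same-numbered libraries correlated at -0.0374 to 0.0262 over 45 pairs, 0 of them over 0.1. No pairing by number was thus seen in the levels, which cannot tell whether same-numbered libraries share a culture or batch. With the replicate number as a block, re-aeration against dry seed gave 9 higher and 33 lower, 4 d nitrogen against air 3 higher, and re-aeration against nitrogen 720 higher. Over all seed regions the block gave 14 and 1425, 91, and 4074, in the same order. Depth limits small regions most: a level of 0 on few reads does not show absence.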
